A study of Mus musculus with 18 samples.

Results

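The genes described here are 8 mouse CC chemokines in 3 functional groups. *Ccl2*, *Ccl7*, *Ccl8* and *Ccl12* encode monocyte chemoattractant proteins (MCPs), *Ccl11* and *Ccl24* encode eotaxins, and *Ccl17* and *Ccl22* encode the ligands of the receptor CCR4. They were chosen by name and found in the count files by Ensembl identifier, as 8 of 55029 genes listed in one set of files and 8 of 54232 in the other. Of the 8, *Ccl11* had too few counts to be tested in either set, and *Ccl17* could be tested in the IL-4 set alone.

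RNA from eosinophils of C57BL/6 mice of the NJ.1638 line, which carry an *Il5* transgene, was measured in 18 libraries. The cells came from peritoneal washes and were enriched by depleting cells positive for Thy1.2 or B220, so cells without either antigen were not removed. The study measured purity by flow cytometry, used only preparations above a set limit, and describes the contaminating cells as mostly lymphocytes. The eosinophils were left unstimulated, or received heat-inactivated *E. coli*, IFN-γ, both of these, or IL-4 for 18 h, with 3 libraries per group. No source used here gives the incubation time of the unstimulated cells, so a stimulus and time in culture cannot be told apart. Unstimulated libraries a to c are the controls of the *E. coli* and IFN-γ libraries, and d to f those of the IL-4 libraries, and the files of these sets differ in layout and gene list. The study speaks of biological replicates, but no source used here says whether libraries of a group came from separate mice or cultures, and the p-values measure only the spread between these libraries.

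Genes received between 1523808 and 2734041 counts in each library stimulated with *E. coli* or IFN-γ or belonging to their controls, and between 3625036 and 6482289 in those of IL-4 and its controls. No gene exceeded 4095 counts in any of the 12 libraries of the former set, whereas the highest counts were 87377 to 191131 in the latter. Levels are given as CPM, which are counts scaled to a common normalized library total, and are therefore compared within a set only. *Ccl2*, the member nearest to that limit, reached at most 60.4% of it. With counts expanded for such a limit, an alternative chosen after seeing the data, the log2 fold change of *Ccl2* with *E. coli* was 1.51 in place of 1.18. Levels of up to 3 counts were treated as not distinguishable from 0, which corresponds to 1.10 to 1.97 CPM in the first set and 0.463 to 0.828 CPM in the second, and covers counting error only.

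The eosinophil label was checked on 11 markers. *Ccr3* and *Siglecf* were abundant in every group, and the 11 markers summed to 4442 to 7521 CPM in the first set and 7991 to 10380 CPM in the second. In the first set *Cd24a*, *Alox15* and *Ccr3*, the largest parts, reached 4060, 3732 and 3576 counts, close to the highest count of 4095. That sum may therefore be understated and depend on library depth. *Prg3*, which encodes a granule protein, was at or under 3 counts in all libraries of the first set, as was *Epx* in its stimulated libraries. Transcripts of 14 genes listed as macrophage markers were also present, summing to 1609 to 2646 CPM in the first set and 2366 to 3502 CPM in the second. The largest part in the first set was *Adgre1*, with group means of 885 to 1186 CPM, before *Csf1r* at 376 to 467 CPM. In the second set the group means were 783 to 817 CPM for *C1qc*, 554 to 789 CPM for *C1qb* and 422 to 735 CPM for *Adgre1*. Which cells these transcripts came from was not tested, so their sum is no measure of macrophage content.

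Chemokines are small secreted proteins that guide leukocytes through G protein-coupled receptors. MCPs act mainly through CCR2 on monocytes, and some also engage CCR3 or, for mouse CCL8, CCR8. Eotaxins attract eosinophils through CCR3, and CCL17 and CCL22 attract T helper type 2 and regulatory T cells through CCR4. In macrophages, IL-4 is known to induce several of these genes through STAT6, while bacterial products act through NF-κB.

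The 4 MCP genes and *Ccl11* lie in one cluster on chromosome 11 of GRCm38, all on the plus strand, within 81.2 kb. The order is *Ccl2* (chr11:82035571-82037453), *Ccl7* (chr11:82045712-82047525), *Ccl11* (chr11:82057823-82062955), *Ccl12* (chr11:82101845-82103400) and *Ccl8* (chr11:82115185-82116799), with no other protein-coding gene between them. *Ccl22* (chr8:94745590-94751699) and *Ccl17* (chr8:94810453-94812036) lie within 66.4 kb on the plus strand of chromosome 8, with *Cx3cl1* between them. *Ccl24* (chr5:135569937-135573049) stands apart on the minus strand of chromosome 5. No member shared exon positions with another gene or had a near-identical copy elsewhere in the genome (searched at 95% identity, over stretches from 200 bases), and the closest pairs were *Ccl2* with *Ccl7* at 72.5% and *Ccl8* with *Ccl12* at 70.2% identity.

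Promoter sequences from RefSeq (GRCm38) were matched for 4 of the 8 members, and these 4 genes rose with IL-4. The 3 sequences that held a motif match are shown: *Ccl8* and *Ccl12*, neighbours in the chromosome 11 cluster, and *Ccl17*. Each holds the 250 bases before the RefSeq start on the plus strand, 5′ to 3′, at chr11:82114935-82115184 for *Ccl8*, chr11:82101595-82101844 for *Ccl12* and chr8:94810203-94810452 for *Ccl17*. Capitals mark motif matches. The sequence before *Ccl22*, which also rose, held none of the motifs and is not shown.
Ccl8: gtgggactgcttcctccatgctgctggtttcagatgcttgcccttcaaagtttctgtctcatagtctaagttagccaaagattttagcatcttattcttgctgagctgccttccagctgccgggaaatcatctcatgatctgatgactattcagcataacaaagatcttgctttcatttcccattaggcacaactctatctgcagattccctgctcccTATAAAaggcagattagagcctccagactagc
Ccl12: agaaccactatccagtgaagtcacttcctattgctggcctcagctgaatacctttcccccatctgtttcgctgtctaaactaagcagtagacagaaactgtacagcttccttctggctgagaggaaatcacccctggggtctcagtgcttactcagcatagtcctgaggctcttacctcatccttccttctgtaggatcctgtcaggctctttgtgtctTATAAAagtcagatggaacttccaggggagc
Ccl17: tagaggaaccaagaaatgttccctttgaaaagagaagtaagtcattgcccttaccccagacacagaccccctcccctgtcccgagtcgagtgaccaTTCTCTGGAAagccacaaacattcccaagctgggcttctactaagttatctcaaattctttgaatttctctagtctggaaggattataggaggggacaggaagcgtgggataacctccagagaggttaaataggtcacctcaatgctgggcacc
The letters TATAAA were found from -32 to -27 before the start of *Ccl8* and from -31 to -26 before that of *Ccl12*. The *Ccl17* sequence held a match to the STAT6 letters TTCNNNNGAA from -154 to -145. Both strands were searched, and these matches do not overlap another motif. Over 32851 promoters of the same length, 12.4% held TATAAA and 5.85% the STAT6 letters. The AP-1 letters TGANTCA, in 6.75% of promoters, and the NF-κB motifs, in 1.41% and 0.283%, had no match in the promoters of these 4 members. A match describes letters and is no evidence of binding.

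IL-4 was compared with unstimulated libraries d to f to ask how a Type 2 cytokine changes these genes. All 7 tested members rose, with *Ccl8*, *Ccl17* and *Ccl22* the most. *Ccl17* passed the filter on low counts through its IL-4 libraries alone, so that it could enter the test only if it rose. *Ccl8* rose by 10.6-fold, *Ccl22* by 5.85-fold and *Ccl17* by at least 9.80-fold, while the other 4 rose by 1.99-fold to 2.90-fold. Of 10556 genes tested, 5.97% were called higher and 4.35% lower. The median log2 fold change was 1.52 over the 7 members and 0.00 over all genes tested.

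*Ccl8* encodes MCP-2. Its level was 14.7, 8.42 and 8.45 CPM in unstimulated libraries d to f and 114, 104 and 115 CPM in the IL-4 libraries. Every IL-4 library was thus far above every unstimulated one, and *Ccl8* had the 4th smallest p-value of all genes tested. The log2 fold change was 3.43 ± 0.21 (SE), with an adjusted p of 2.63e-05 by edgeR's quasi-likelihood test.

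*Ccl12* encodes MCP-5, a mouse monocyte chemoattractant. It was at 23.5, 23.8 and 30.2 CPM without stimulus and at 68.2, 72.0 and 79.2 CPM in the IL-4 libraries. The log2 fold change was 1.496 ± 0.16 (SE), with an adjusted p of 0.000317. The lowest IL-4 library was above the highest unstimulated library.

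*Ccl7*, which encodes MCP-3, was at 76.6, 92.5 and 102 CPM without stimulus and at 207, 217 and 233 CPM with IL-4. Its log2 fold change was 1.28 ± 0.14 (SE), with an adjusted p of 0.000332. *Ccl2*, which encodes MCP-1 and was already high without stimulus, went from 1268, 1014 and 1572 CPM to 2477, 2523 and 2683 CPM. That change of 1.00 ± 0.15 (SE) on the log2 scale had an adjusted p of 0.00269 and was the smallest of the 7.

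*Ccl24*, which encodes eotaxin-2, was at 34.3, 53.8 and 36.8 CPM in unstimulated libraries and at 108, 104 and 149.7 CPM with IL-4. It rose by 1.52 ± 0.21 (SE) on the log2 scale with an adjusted p of 0.00141. *Ccl11*, which encodes eotaxin-1, was listed at 0 counts in 17 libraries and had 1 count in IL-4 library 3. Any level of *Ccl11* below 3 counts was not detectable at this depth, and no fold is given.

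*Ccl22*, the gene of macrophage-derived chemokine, was at 7.47, 7.43 and 9.96 CPM without stimulus and at 44.3, 41.8 and 59.4 CPM with IL-4. Its log2 fold change was 2.54 ± 0.21 (SE), with an adjusted p of 9.61e-05. *Ccl17*, the gene of thymus and activation-regulated chemokine, was at 1 to 3 counts, or 0.277 to 0.495 CPM, in every unstimulated library, and at 4.16, 4.80 and 9.55 CPM with IL-4, from 22 to 37 counts. The 3 unstimulated libraries were at or under 3 counts each, so that its fold is a bound set against that level. Its adjusted p of 0.00232 is not independent of the filter on low counts, which it passed through the IL-4 libraries alone.

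In these bulk samples fewer cells of a type and less RNA per cell cannot be told apart. With IL-4, 5 of 13 tested macrophage markers fell and none rose, where 4.35% of all genes fell and 5.97% rose. The 14 listed summed to 2853 to 3502 CPM without stimulus and to 2366 to 2689 CPM with IL-4. The mean of *Adgre1* went from 735 to 422 CPM, that of *C1qb* from 789 to 554 CPM and that of *C1qc* from 817 to 783 CPM. Of 6 tested dendritic cell markers 3 rose, and the 9 listed summed to 287 to 488 CPM without stimulus and to 584 to 651 CPM with IL-4, most of it *Itgax*. B cell markers summed to 5.28 to 13.7 CPM and to 19.0 to 31.0 CPM, with 2 of 3 tested higher. Neutrophil markers summed to 1673 to 1991 CPM and to 771 to 831 CPM, most of it *Retnlg*, which fell from a mean of 1847 to 751 CPM, while *Cxcr2* rose from 3.75 to 31.9 CPM and the other 3 tested were not called. Mast cell markers summed to 90.6 to 122 CPM and to 148 to 159 CPM, with *Hdc* the only 1 of 4 tested that rose. The part of these shifts in the chemokine values was not tested.

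**Figure D1:**
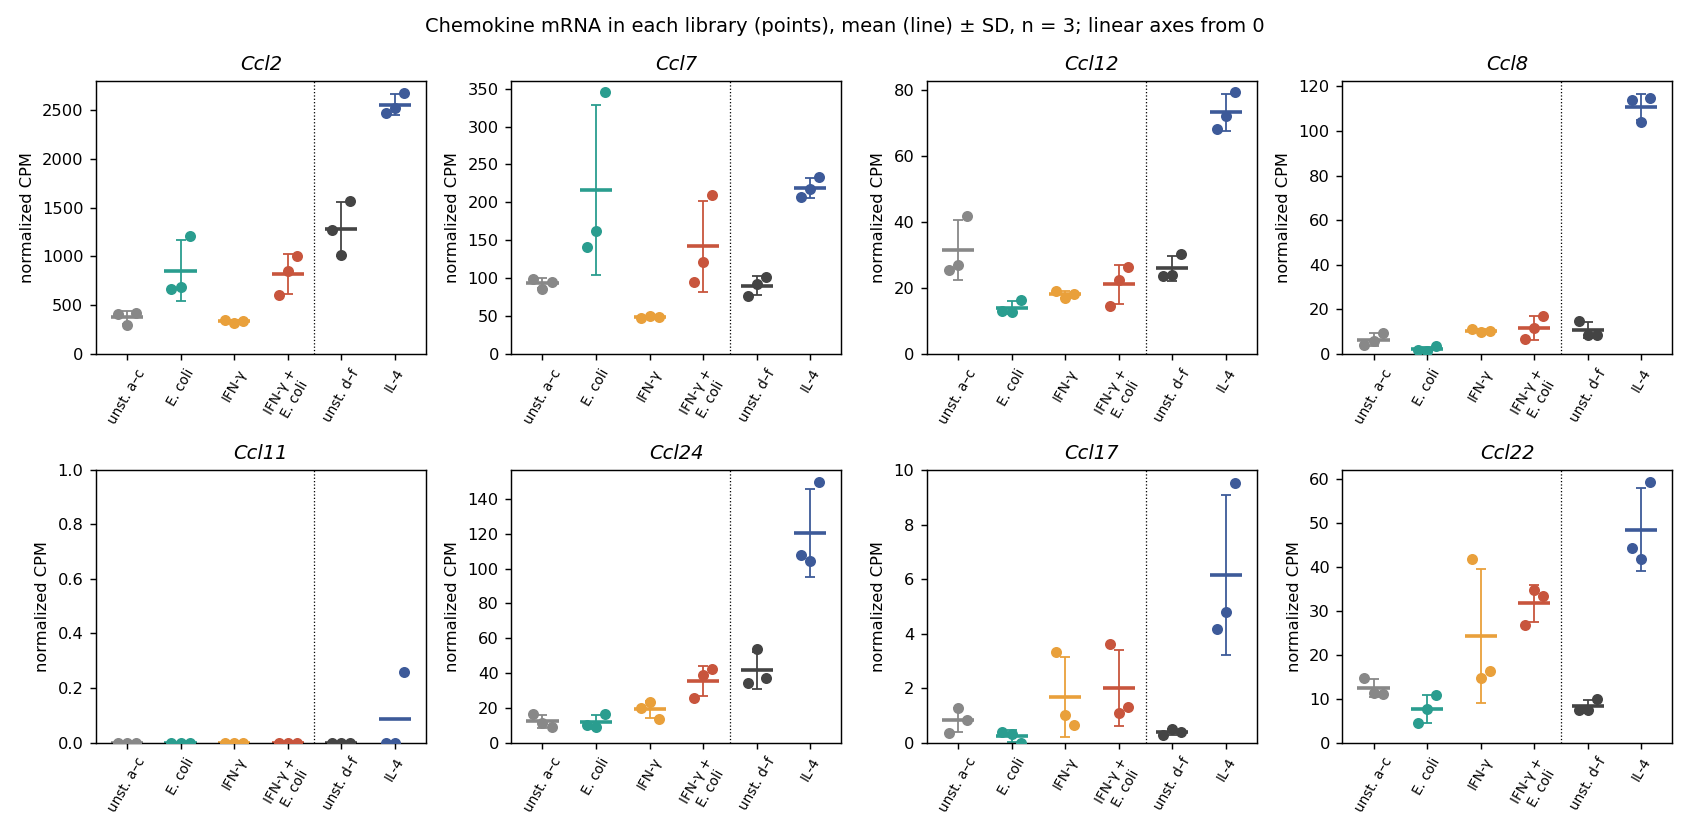
Normalized CPM (linear axes from 0) of the 8 chemokine genes in each library, with points for libraries, lines for means and bars for SD (n = 3 per group, none drawn for *Ccl11*), and a dotted line between the 2 library sets, whose levels are not comparable. *Ccl8* was at 104 to 115 CPM in the IL-4 libraries against 8.42 to 14.7 CPM in unstimulated libraries d to f.

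*E. coli* was compared with unstimulated libraries a to c to ask how a bacterial stimulus changes the same genes. The MCP genes split, with *Ccl2* and *Ccl7* higher and *Ccl8* and *Ccl12* lower. So 2 of the 6 members tested rose, where 13.5% of 9883 genes were called higher, and 2 fell, where 16.7% were called lower. The median log2 fold change was -0.42 over the 6 members and -0.02 over all genes.

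*Ccl2* was at 407, 299 and 420 CPM without stimulus and at 664, 688 and 1212 CPM with *E. coli*, with no overlap. It rose by 1.18 ± 0.21 (SE) on the log2 scale, with an adjusted p of 0.000253. *Ccl7* went from 99.2, 86.2 and 94.96 CPM to 142, 162 and 345 CPM. *E. coli* library 3 was the highest *E. coli* library for both genes, and without it the log2 fold change of *Ccl7* went from 1.19 ± 0.27 (SE, adjusted p = 0.00256) to 0.70 (adjusted p = 0.0142, the range over alternatives being 3.63e-17 to 0.0142).

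*Ccl12* was at 25.4, 27.0 and 41.8 CPM without stimulus and at 12.97, 12.6 and 16.2 CPM with *E. coli*, so that the groups did not overlap. It fell by 1.197 ± 0.23 (SE) on the log2 scale, with an adjusted p of 0.000554. *Ccl8* was low throughout this set, at 4.06, 5.66 and 9.41 CPM without stimulus and at 1.62, 1.33 and 3.43 CPM, from 4 to 7 counts, with *E. coli*. Its fall of 1.64 ± 0.48 (SE) on the log2 scale had an adjusted p of 0.0139. That call was lost without unstimulated library c (0.112), *E. coli* library 1 (0.0541) or *E. coli* library 2 (0.0795), within a range of 0.00387 to 0.112 over all alternatives.

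Neither *Ccl22* nor *Ccl24* passed the test with *E. coli*. *Ccl22* was at 14.7, 11.3 and 11.05 CPM without stimulus and at 4.46, 7.63 and 10.8 CPM with *E. coli*. The groups did not overlap, yet the log2 fold change of -0.74 had a 95% interval of -1.56 to 0.08 and an adjusted p of 0.165. *Ccl24* was at 16.2, 11.3 and 9.01 CPM and at 10.1, 8.96 and 16.7 CPM, with overlap and a 95% interval of -0.73 to 0.55 around -0.09.

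With *E. coli*, 5 of 13 tested macrophage markers fell and none rose, where 16.7% of all genes fell and 13.5% rose. *Cd5l*, *Timd4*, *Vsig4* and *Selenop* were among those that fell. The summed level of the macrophage list was 1609 to 2191 CPM against 1942 to 2037 CPM without stimulus, and *E. coli* library 3 was the highest of these. All 4 tested B cell markers fell, and their list summed to 18.6 to 32.4 CPM against 52.8 to 90.6 CPM. Mast cell markers summed to 190 to 264 CPM against 58.5 to 80.2 CPM, most of it *Hdc*, with 2 of 4 tested higher. Whether these cell types had a part in the falls of *Ccl8* and *Ccl12* was not tested.

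IFN-γ was compared with the same unstimulated libraries. *Ccl7* and *Ccl12* fell and *Ccl22* rose, while *Ccl2*, *Ccl8* and *Ccl24* did not pass the test. Thus 1 of 6 members was called higher, where 15.6% of genes were, and 2 lower, where 16% were. The median log2 fold change was 0.23 over the members and -0.03 over all genes.

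*Ccl7* was at 47.3, 49.9 and 48.8 CPM with IFN-γ, below all 3 unstimulated libraries. It fell by 0.95 ± 0.31 (SE) on the log2 scale with an adjusted p of 0.0254, and the call was lost with DESeq2 (0.0936) and without unstimulated library a or c or any one IFN-γ library (up to 0.0811), within a range of 1.05e-07 to 0.0936. *Ccl12*, at 18.9, 16.8 and 18.2 CPM, was also below every unstimulated library. It fell by 0.82 ± 0.23 (SE) with an adjusted p of 0.0116, and lost the call without unstimulated library c (log2 fold change -0.54, adjusted p = 0.096) or IFN-γ library 2 (0.0559), within a range of 0.00518 to 0.096.

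*Ccl22* was at 41.7, 14.8 and 16.3 CPM with IFN-γ, with library 1 far above the other two, and its log2 fold change was 0.95 ± 0.34 (SE, adjusted p = 0.041). Without IFN-γ library 1 the change was 0.31 and the adjusted p 0.482, and the call was also lost without unstimulated library a, b or c (0.0623, 0.0797 and 0.114), within a range of 0.000962 to 0.482. *Ccl17* was at 3.34, 1.02 and 0.651 CPM, where library 1 was again the highest, with 6 counts.

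The remaining members had intervals that included or nearly reached 0. *Ccl2* was at 347, 318 and 338 CPM, overlapping the unstimulated libraries, with a log2 fold change of -0.18 and a 95% interval of -0.61 to 0.26. *Ccl8* was at 11.1, 9.68 and 10.4 CPM, above every unstimulated library, with a change of 0.69 (interval -0.10 to 1.49, adjusted p = 0.178). *Ccl24* was at 20.03, 23.4 and 13.7 CPM, overlapping them, with a change of 0.64 (interval 0.01 to 1.26, adjusted p = 0.112).

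With IFN-γ the macrophage markers summed to 2398 to 2646 CPM, above the 1942 to 2037 CPM of the unstimulated libraries. Of 13 tested, 4 were higher and 3 lower, where 15.6% and 16% of all genes were. The mean of *Adgre1*, the largest part of that sum, was 885 CPM without stimulus and 1186 CPM with IFN-γ. B cell markers summed to 28.6 to 37.8 CPM, with 3 of 4 lower, and dendritic cell markers summed to 307 to 323 CPM against 308 to 357 CPM, with none of 3 tested called. Mast cell markers summed to 198 to 228 CPM against 58.5 to 80.2 CPM, most of it *Hdc*, with 2 of 4 tested higher and 1 lower. The part of these lists in the chemokine values was not tested.

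IFN-γ and *E. coli* together were compared with unstimulated libraries a to c and with each stimulus alone. Against unstimulated cells *Ccl2*, *Ccl22* and *Ccl24* rose and *Ccl12* fell. Here 3 of 6 members were called higher, where 23.9% of genes were, and 1 lower, where 25.2% were. The median log2 fold change was 1.00 over the members and -0.04 over all genes.

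*Ccl24* was at 25.4, 38.6 and 42.0 CPM with both stimuli, above all 9 other libraries of this set. It rose by 1.52 ± 0.28 (SE) on the log2 scale against unstimulated cells, with an adjusted p of 0.000168. *Ccl22* was at 26.8, 34.8 and 33.5 CPM, above every unstimulated library, and rose by 1.34 ± 0.33 (SE) with an adjusted p of 0.00267.

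*Ccl2* was at 604, 852 and 1009 CPM, above every unstimulated library, and rose by 1.12 ± 0.21 (SE) with an adjusted p of 0.000196. *Ccl7* was at 94.3, 121 and 209.9 CPM, overlapping the unstimulated libraries, with a log2 fold change of 0.59 and an adjusted p of 0.0908. *Ccl7* passed the test without *E. coli* library 3 (0.0137) or library 1 of both stimuli (0.0234), and the adjusted p ranged from 0.000228 to 0.516 over alternatives.

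*Ccl12* was at 14.5, 22.3 and 26.2 CPM and overlapped the unstimulated libraries. Its fall of 0.58 ± 0.23 (SE) on the log2 scale had an adjusted p of 0.045, and the call was lost in 13 of 20 alternatives, with adjusted p from 0.0243 to 0.309. The largest shift came without unstimulated library c, at -0.30, followed by -0.37 without library 1 of both stimuli. The other libraries whose removal ended the call were *E. coli* 1 and 2, IFN-γ 1 to 3 and both stimuli 2, at -0.56 to -0.62.

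*Ccl8* was at 6.53, 11.4 and 17.05 CPM with both stimuli, with a log2 fold change of 0.87 and an adjusted p of 0.0639. It passed the test without unstimulated library c (1.31, adjusted p = 0.02) or library 1 of both stimuli (1.16, adjusted p = 0.0188), within a range of 0.0188 to 0.305. *Ccl17* was at 3.63, 1.09 and 1.31 CPM, from 2 to 5 counts, and was not tested. Macrophage markers summed to 2101 to 2620 CPM with both stimuli. Of 13 tested, 2 were higher and 3 lower, where 23.9% and 25.2% of all genes were.

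Mast cell markers summed to 571 to 611 CPM with both stimuli against 58.5 to 80.2 CPM. Of 4 tested, 3 were higher, where 23.9% of all genes were. *Hdc* rose from a mean of 20.4 to 477 CPM, *Cma1* from 2.29 to 26.2 CPM and *Tpsb2* from 3.74 to 24.2 CPM. *Mcpt4* was at or under 3 counts in every library of this set, and *Fcer1a* at or under 4 counts. Dendritic cell markers summed to 191 to 225 CPM against 308 to 357 CPM, where *Itgax* fell from 299 to 169.8 CPM and *Ccr7* rose from 13.9 to 24.5 CPM. The part of these lists in the chemokine values was not tested.

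**Figure D2:**
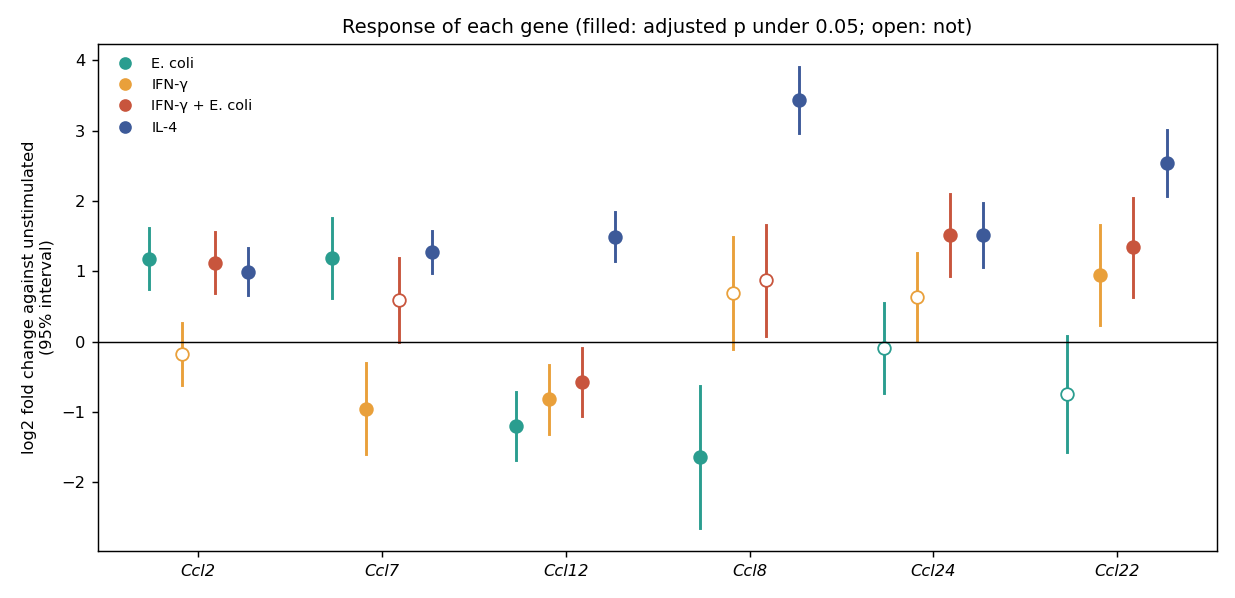
Log2 fold change against unstimulated libraries of the same set (vertical axis) with 95% intervals for the 6 members tested with all 4 stimuli, filled where the adjusted p was under 0.05. IL-4 values are all above 0 and filled, while with *E. coli* *Ccl2* (1.18) and *Ccl7* (1.19) lie above 0 and *Ccl12* (-1.197) and *Ccl8* (-1.64) below.

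The direct comparisons between stimuli ordered the levels of each gene within this set. Against *E. coli* alone, adding IFN-γ raised *Ccl8*, *Ccl22* and *Ccl24*, so that 3 of 6 members were called, where 32.8% of genes were called in either direction. The log2 fold changes were 2.51 ± 0.45 (SE, adjusted p = 0.000279) for *Ccl8*, 2.08 ± 0.36 (SE, adjusted p = 0.000162) for *Ccl22* and 1.61 ± 0.27 (SE, adjusted p = 0.000156) for *Ccl24*. *Ccl2* differed by -0.05 with a 95% interval of -0.48 to 0.37. *Ccl12* differed by 0.62 (adjusted p = 0.0687), and passed the test without unstimulated library c (0.0458), without library 1 of both stimuli (0.81, adjusted p = 0.0249) and in the model of all libraries (0.0451), within a range of 0.0249 to 0.258. *Ccl7* differed by -0.60 (adjusted p = 0.0982), and passed without *E. coli* library 1 (-0.83, adjusted p = 0.0279) or library 3 of both stimuli (-0.98, adjusted p = 0.00593), within a range of 5.41e-05 to 0.754.

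Against IFN-γ alone, adding *E. coli* raised *Ccl2*, *Ccl7* and *Ccl24*, again 3 of 6 members, where 12.2% of genes were called. *Ccl7* differed by 1.54 ± 0.31 (SE, adjusted p = 0.00245) and *Ccl2* by 1.30 ± 0.21 (SE, adjusted p = 0.000352). *Ccl24* differed by 0.88 ± 0.27 (SE, adjusted p = 0.0371), a call that was lost with DESeq2 (0.0626) and without IFN-γ library 1 (0.0979) or 3 (0.135) or library 2 (0.135) or 3 (0.105) of both stimuli, within a range of 0.00605 to 0.135. *Ccl8* differed by 0.18 (95% interval -0.58 to 0.94), *Ccl12* by 0.24 (-0.30 to 0.78) and *Ccl22* by 0.39 (-0.27 to 1.05). Without IFN-γ library 1 the difference of *Ccl22* was 1.04 and passed the test (adjusted p = 0.0302, within a range of 0.0302 to 0.888).

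IFN-γ and *E. coli* alone differed for 4 of 6 members, where 25.5% of genes were called. *Ccl2* and *Ccl7* were lower with IFN-γ, by log2 fold changes of -1.35 ± 0.21 (SE, adjusted p = 6.49e-05) and -2.14 ± 0.30 (SE, adjusted p = 1.98e-05). *Ccl8* and *Ccl22* were higher with IFN-γ, by 2.33 ± 0.46 (SE, adjusted p = 0.000704) and 1.69 ± 0.36 (SE, adjusted p = 0.0017). Without IFN-γ library 1 the difference of *Ccl22* was 1.04 (adjusted p = 0.0257, within a range of 6.91e-09 to 0.0257).

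The levels of *Ccl2* and *Ccl7* thus ran in the descending order *E. coli*, both stimuli, unstimulated and IFN-γ. The first pair did not pass the test for either gene, a result that for *Ccl7* changed with the alternatives given above, both stimuli and unstimulated cells did not for *Ccl7*, and unstimulated cells and IFN-γ did not for *Ccl2*. *Ccl8*, *Ccl22* and *Ccl24* were ordered as both stimuli, IFN-γ, unstimulated and *E. coli*. Of neighbours in that order, both stimuli and IFN-γ differed for *Ccl24* only, unstimulated cells and IFN-γ for *Ccl22* only, and unstimulated cells and *E. coli* for *Ccl8* only. These calls were lost in 6 of 21, 5 of 20 and 3 of 20 alternatives, in that order. *Ccl12* was ordered as unstimulated, both stimuli, IFN-γ and *E. coli*. Only the first of these steps passed the test, a call lost in 13 of 20 alternatives.

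The interaction term asked whether the joint change departed from the sum of the separate log2 changes. It passed the test for *Ccl12* alone, where 4.62% of genes were called. The separate changes of *Ccl12* summed to -2.02, the joint change was -0.58, and the term was 1.44 ± 0.34 (SE, adjusted p = 0.02). That call was lost without unstimulated library c, *E. coli* library 1 or 2, IFN-γ library 2, or library 2 or 3 of both stimuli, with values of 1.16 to 1.38 and adjusted p of 0.0506 to 0.0643, within a range of 0.00323 to 0.0643 over all alternatives.

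The terms of the other members were 1.82 (95% interval 0.55 to 3.08, adjusted p = 0.0996) for *Ccl8* and 1.13 (0.08 to 2.18, adjusted p = 0.253) for *Ccl22*. They were 0.98 (0.12 to 1.83, adjusted p = 0.217) for *Ccl24*, 0.35 (-0.51 to 1.22) for *Ccl7* and 0.12 (-0.49 to 0.73) for *Ccl2*. Without IFN-γ library 1 the term of *Ccl22* was 1.77 and passed the test (adjusted p = 0.0197, within a range of 0.0197 to 0.512).

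**Figure D3:**
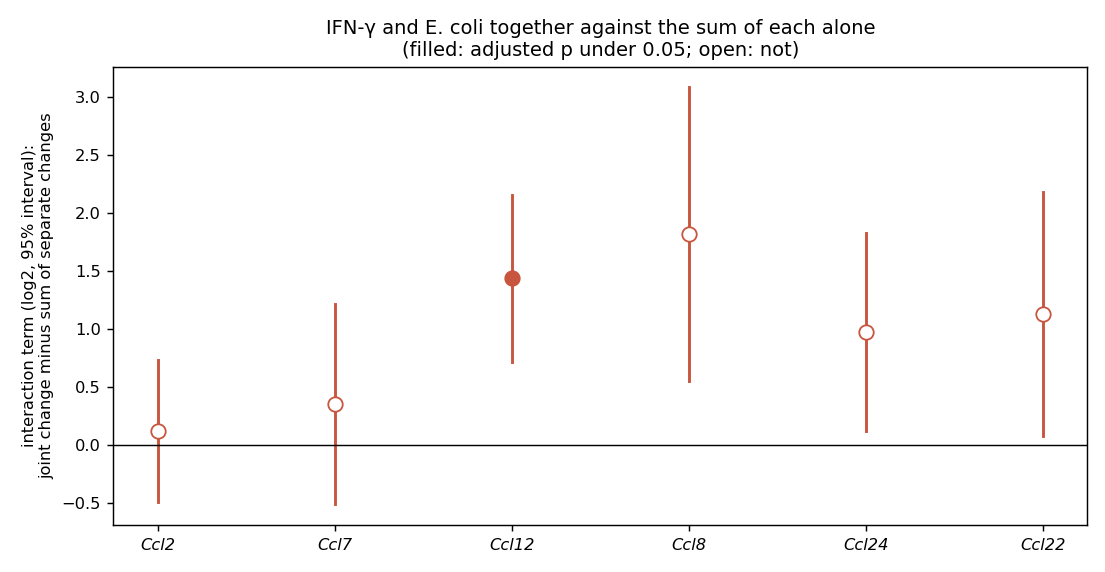
Interaction term of IFN-γ and *E. coli* on the log2 scale (vertical axis, the joint change minus the sum of the separate changes) with 95% intervals for the 6 members tested, filled where the adjusted p was under 0.05. All 6 terms lie above 0, from 0.12 for *Ccl2* to 1.82 for *Ccl8*, and only that of *Ccl12* (1.44) is filled.

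To compare IL-4 with the other stimuli, the difference between responses was tested in one model of all 18 libraries, each response being taken against the unstimulated libraries of its own set. Since the files of the sets also differ in layout and in their highest counts, the effect of stimulus and of file processing on a response cannot be told apart. The IL-4 response exceeded the *E. coli* response for 4 of 6 members, where 28.1% of genes differed in either direction. The differences were 5.07 ± 0.51 (SE, adjusted p = 1.83e-07) for *Ccl8*, 3.25 ± 0.47 (SE, adjusted p = 1.89e-05) for *Ccl22*, 2.68 ± 0.28 (SE, adjusted p = 2.93e-07) for *Ccl12* and 1.596 ± 0.39 (SE, adjusted p = 0.00344) for *Ccl24*. For *Ccl2* and *Ccl7* they were -0.20 (95% interval -0.80 to 0.40) and 0.06 (-0.67 to 0.80).

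The IL-4 response exceeded the IFN-γ response for 5 of 6 members, where 27.8% of genes differed. The differences were 2.71 for *Ccl8*, 2.28 for *Ccl12*, 2.19 for *Ccl7*, 1.55 for *Ccl22* and 1.14 for *Ccl2*, with adjusted p of 2.85e-06 to 0.011. For *Ccl24* the difference was 0.85 (95% interval 0.06 to 1.64, adjusted p = 0.0997), and it passed the test without unstimulated library e (1.08, adjusted p = 0.0282) and with no filter on low counts (0.0457), within a range of 0.0282 to 0.403. The call for *Ccl22* was lost without unstimulated library a (adjusted p = 0.0521, within a range of 0.000145 to 0.0521).

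The IL-4 response exceeded the response to both stimuli for 3 of 6 members, where 39.2% of genes differed. The differences were 2.50 ± 0.44 (SE, adjusted p = 1e-04) for *Ccl8*, 2.01 (adjusted p = 6.48e-06) for *Ccl12* and 1.13 (adjusted p = 0.0431) for *Ccl22*. The call for *Ccl22* was lost in 12 of 23 alternatives, with DESeq2 (0.0694) and without unstimulated library a, b, c, d or e, *E. coli* library 2, any library of both stimuli or IL-4 library 1 or 3, within a range of 0.00548 to 0.139. *Ccl24* differed by -0.06 with a 95% interval of -0.78 to 0.66, *Ccl2* by -0.19 (-0.79 to 0.42) and *Ccl7* by 0.63 (-0.12 to 1.38). The difference of *Ccl7* passed the test without library 3 of both stimuli (1.03, adjusted p = 0.0212) and with no filter on low counts (0.0167), within a range of 0.0167 to 0.405.

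**Figure D4:**
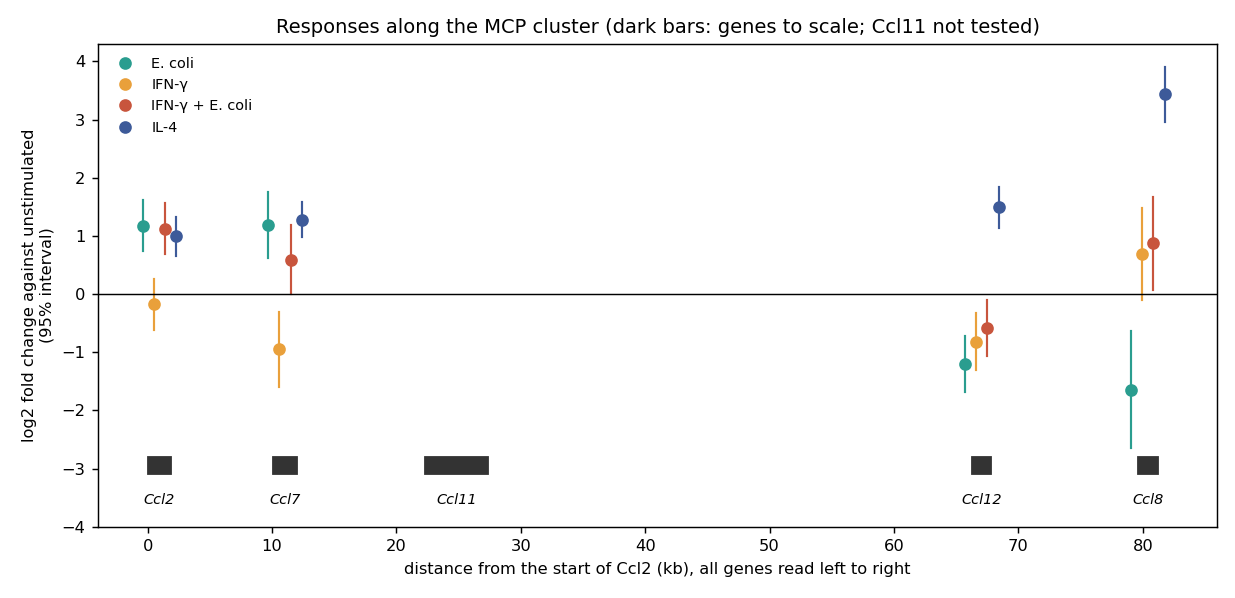
Log2 fold change against unstimulated libraries with 95% intervals (vertical axis) for the chromosome 11 members at their distance from the start of *Ccl2* in kb (horizontal axis, points of the 4 stimuli set slightly apart, genes drawn to scale). The *E. coli* points of *Ccl2* and *Ccl7*, within 12 kb, lie above 0 and those of *Ccl12* and *Ccl8*, from 66.3 to 81.2 kb, below it, while all IL-4 points lie above 0.

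Across the 18 libraries, after the mean of each set's unstimulated libraries was subtracted, the levels of *Ccl2* and *Ccl7* had a Pearson r of 0.87 and those of *Ccl8* and *Ccl12* one of 0.85. *Ccl8* and *Ccl22*, on different chromosomes, had an r of 0.90 and *Ccl22* and *Ccl24* one of 0.86, whereas *Ccl2* and *Ccl12* had one of 0.14. These are descriptions over 18 libraries that share groups, sets and depth, and carry no test. Among 8334 genes, the 2 most like each member were *Cyp1b1* (0.95) and *Timp1* (0.92) for *Ccl2* and *Pecam1* (0.90) and *Ear6* (0.89) for *Ccl7*. They were *Gatm* and *Wwc2* for both *Ccl8* (0.95 and 0.95) and *Ccl22* (0.91 and 0.91), *Tor3a* (0.95) and *Ddx58* (0.94) for *Ccl12*, and *Impa2* (0.88) and *Cxcr4* (0.88) for *Ccl24*.

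The receptors of these chemokines were measured in the same libraries. *Ccr3*, the eotaxin receptor of eosinophils, went from 2141 ± 454 CPM (SD, n = 3) without stimulus to 1296 ± 81.1 CPM with IL-4. That fall of 0.72 on the log2 scale had an adjusted p of 0.0117. In the other set its mean was 1301 to 1596 CPM in each group, with no call. Its counts there were 2258 to 3576, close to the highest count of 4095 in that set. A change of *Ccr3* there may thus be understated, so the missing call is not set against the fall with IL-4.

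*Ccr2*, the receptor of MCPs, rose on the log2 scale by 0.87 with IFN-γ (adjusted p = 0.0243) and by 0.83 with both stimuli (adjusted p = 0.0229). Its mean was 3.93 to 14.1 CPM. *Ccr1* was not called with any stimulus, at means of 776 to 901 CPM. *Ccr4*, the receptor of CCL17 and CCL22, had a mean of at most 0.902 CPM in any group, *Ccr10* and *Ackr4* had means of at most 0.313 and 0.212 CPM, and *Ccr8*, *Ackr1* and *Ackr2* were listed at 0 in all libraries.

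Of 11 other CC chemokine genes 6 could be tested in each set. Over all genes, 13.5% were called higher with *E. coli*, 15.6% with IFN-γ, 23.9% with both stimuli and 5.97% with IL-4. Called lower were 16.7%, 16%, 25.2% and 4.35% in the same order, and these shares also stand beside the gene lists below. With *E. coli* *Ccl3* and *Ccl4*, inflammatory chemokines, rose by 3.41 and 2.37 on the log2 scale and none fell. With both stimuli 4 rose, led by *Ccl3* at 4.91 (adjusted p = 1.3e-14). With IFN-γ 2 rose, led by *Ccl3* at 2.24, and *Ccl25* fell by 0.92 (adjusted p = 0.0497). With IL-4 1 rose, *Ccl4* at 0.81, and 3 fell, with *Ccl6* at -1.002, *Ccl9* at -0.91 and *Ccl3* at -0.89.

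Genes of the signalling routes that lead to these chemokines were also counted. Of 11 genes of IL-4 receptor signalling, all tested with IL-4, 4 rose and none fell. Among them *Pparg*, a nuclear receptor gene, had a mean of 0.147 CPM without stimulus and 5.26 CPM with IL-4, and *Socs1*, a feedback inhibitor, rose by 1.52 (adjusted p = 9.61e-05). In the other set 9 genes of that list were tested. *Il13ra1*, a receptor chain, led the rises with each stimulus, at 1.26 for *E. coli*, 3.38 for IFN-γ and 3.30 for their combination. In these comparisons 5, 4 and 5 genes rose while 2, 0 and 1 fell.

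Of 10 genes of IFN-γ signalling, 4 rose and none fell with IFN-γ, led by the transcription factor gene *Irf1* at 2.08 (adjusted p = 2.47e-11). With both stimuli 7 rose, led by the feedback inhibitor gene *Socs3* at 2.31, and *Ifngr1* fell by 0.56. With *E. coli* 3 rose, led by *Socs3* at 2.00, and 4 fell, *Irf1* by 0.76 among them. With IL-4 6 rose, including *Irf1* by 0.97, and none fell.

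Of 16 genes of TLR and NF-κB signalling, 9 rose with *E. coli* and 10 with both stimuli, and none fell. Of all genes, 13.5% and 23.9% rose in these comparisons. *Irak3*, an inhibitor of TLR signalling, led these at 2.48 and 3.16. With IFN-γ 9 rose, led by *Tnfaip3* at 1.2, and 2 fell, with *Tlr2* at -1.29 the furthest. With IL-4 4 rose, led by *Nfkbia* at 1.02, and *Tlr2* fell by 0.79. Of 7 genes that act on the decay of chemokine mRNA, 3 rose with *E. coli*, 1 with IFN-γ, 3 with both stimuli and 1 with IL-4. The shares of all genes that rose were 13.5%, 15.6%, 23.9% and 5.97%, so the count with IFN-γ was near its share. *Zc3h12c* led the first 3 comparisons, at 1.76, 1.84 and 3.34, *Zfp36l1* rose by 0.62 with IL-4, and *Zfp36* fell by 0.56 with *E. coli*.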

How the data were processed

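Counts per Ensembl gene were deposited by the authors for 18 libraries, without normalization. The study's methods describe CEL-Seq2 libraries, TopHat2 2.1.0 alignment to GRCm38 and HTSeq 0.6.1 counting of uniquely mapped reads, and the submitters' processing notes also name fastp 0.20.1 and STAR 2.7.2a. Which tools made which set, and whether molecular identifiers were collapsed, is not given in the sources used here. Rows that name no gene, 21.1% to 39.4% of the counts listed per library of the larger set, were left out.

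Libraries were grouped by their labels, and unstimulated libraries were assigned to a set by the layout of their files. In R 4.3.3, genes were kept by filterByExpr of edgeR 4.0.16, normalized by TMM and compared by its quasi-likelihood test with Benjamini-Hochberg adjustment over all genes tested (9883 for *E. coli* and IFN-γ, 10556 in the IL-4 set and 10671 over all libraries), called at an adjusted p under 0.05. Standard errors and 95% intervals were derived from the F statistic and are approximate. The fits were tested on simulated data. Alternatives were DESeq2 1.42.0, its size factors in edgeR, other filters and models, a fold threshold of 2, each library left out, and the replicate number as a block. For correlations, log2 CPM had a prior count of 2, and genes needed a mean of 10 CPM in some group.

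Named genes are the 8 members, the most raised and most lowered called gene of each fixed list with further called genes chosen after their values were seen, and the receptors with a count, and some members of these lists are not reported here. The members and lists were chosen with earlier results of these data known. Positions are from GENCODE M21. RefSeq promoters were matched for *Ccl8*, *Ccl12*, *Ccl17* and *Ccl22*, not for *Ccl2*, *Ccl7*, *Ccl11* and *Ccl24*.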

Additional observations from a re-analysis of the deposited data

Results flagged for a closer look

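The interaction of IFN-γ and *E. coli* for *Ccl12* differed between groups by the test of the difference itself: the log2 change with *E. coli* was -1.197 in the absence of IFN-γ and 0.24 (95% interval -0.30 to 0.78) in its presence, a difference of 1.44 (adjusted p = 0.02 by edgeR's quasi-likelihood test). The value stayed above 0 in all 19 alternatives, at 1.16 to 1.604, and passed the threshold in 13 of them.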

How the results depend on the processing

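Apart from leaving out single libraries, 454 of 479 values of the chemokine genes kept their direction and side of the threshold, 10 gained and 13 lost a call, and 2 changed sign. Both changes of sign arose with counts expanded for the ceiling, an alternative chosen after seeing the data, for the interaction of *Ccl2* (-0.02793) and the IL-4 minus *E. coli* response of *Ccl7* (-0.001384), both near 0. With a 2-fold threshold the members called with IFN-γ went from 3 to 0, and leaving out single libraries gave 0 to 3, with 0 without unstimulated library c and 1 without unstimulated library a or IFN-γ library 1 or 2. For the interaction, where 1 member was called, they gave 0 to 2, with 2 without IFN-γ library 1. The cause of these shifts was not tested.

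Values that were not called changed sign when single libraries were left out. They ranged from -0.37 to 0.22 for *Ccl24* with *E. coli*, from -0.23 to 0.28 for *Ccl2* with both stimuli against *E. coli* and from -0.18 to 0.44 for *Ccl8* with both against IFN-γ. The interaction ranged from -0.08169 to 0.45 for *Ccl2* and from -0.06017 to 0.84 for *Ccl7*. The IL-4 minus *E. coli* response ranged from -0.36 to 0.13 for *Ccl2* and from -0.17 to 0.56 for *Ccl7*, and the IL-4 response minus that to both stimuli from -0.37 to 0.0073 for *Ccl2* and from -0.36 to 0.17 for *Ccl24*.

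The replicate numbers of stimulated libraries were checked for pairing. Correlations of same-numbered deviations were -0.03 to 0.15 between *E. coli* and IFN-γ, 0.09 to 0.16 between *E. coli* and both stimuli and -0.04 to 0.29 between IFN-γ and both, and 2, 4 and 3 of 6 libraries correlated best with their own number, so the numbers were not taken to pair libraries. With the number as a block, *Ccl7* with both stimuli against *E. coli* was called (-0.59, adjusted p = 0.00968), which made 4 members in place of 3, and no other call of a member changed. That fit left out unstimulated libraries a to c and tested 9456 genes, where the main fit held them and tested 9883. Over all genes it gave 3447 calls for both stimuli against *E. coli*, 1430 for both against IFN-γ and 2750 for IFN-γ against *E. coli*. The main fit gave 3240, 1209 and 2525. With only the libraries compared and no block, the calls were 2883, 940 and 2757 in the same order, of 9193, 8768 and 9222 genes tested. The effects of the block and of the libraries used on these calls were not separated here.

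Over all genes a 2-fold threshold left 1023 of 2986 calls with *E. coli*, 1187 of 3120 with IFN-γ, 2210 of 4844 with both stimuli, 478 of 1089 with IL-4, 1027 of 2525 for IFN-γ against *E. coli*, 1325 of 3240 for both against *E. coli*, 404 of 1209 for both against IFN-γ and 245 of 457 for the interaction. With IL-4, no filter gave 1634 calls, the model of all libraries 1892, and leaving out IL-4 library 1, 2 or 3 gave 483, 495 or 515. For both against IFN-γ, 740 and 773 calls were made without IFN-γ library 1 and without library 2 of both stimuli. For the interaction 266 to 294 were made without unstimulated library a, *E. coli* library 1 or 2, or library 2 of both stimuli. At these depths *Ccl11* could not be assessed, and *Ccl17* and *Ccl8* rested on under 10 counts in some groups.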
